A study of Mus musculus with 105 samples.

Results

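Liver tumours of mice lacking SHP2 were compared with liver tumours of mice lacking IKK, gene by gene. The tumours labelled Shp2 KO are called SKO and those labelled Ikk KO are called IKO, as in the sample names. All 4 SKO tumours and all 4 IKO tumours of the series were used, 8 of 105 libraries. All came from mice treated with DEN (diethylnitrosamine, a carcinogen used to induce liver cancer in mice), were sampled at 8 months and were sequenced in group 1. The 4 WT tumours of that group, also DEN-treated and sampled at 8 months, and the non-tumour livers of the same 3 genotypes at that age (n = 4 each) gave the levels set beside them. Strain, sex, dose, Cre driver and the IKK subunit lost in IKO mice are not given in the labels. The series title places the gene losses in hepatocytes, so other cells of each tumour may keep both genes. Replicates are numbered as biological, but the labels do not say that each came from its own animal, so p-values measure the spread between these libraries. RNA was sequenced after a step the labels call MAPS and do not define. The name is used elsewhere for sequencing from the polyadenylated ends of transcripts, and whether that holds here is not stated. In all, 12966 genes were tested.

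SHP2, encoded by Ptpn11, is a tyrosine phosphatase that relays signals from growth factor and cytokine receptors to the RAS and ERK cascade. IKK is the kinase complex that marks the inhibitors of NF-kB for destruction, and Chuk, Ikbkb and Ikbkg encode its catalytic subunits alpha and beta and its regulatory subunit gamma. Both act in pathways that promote cell growth and survival, and in mice the loss of either from hepatocytes is known to worsen chemically induced liver cancer. Mouse liver also has a large set of genes that differ between the sexes, which the pituitary sets through the pattern of growth hormone release and the factor STAT5b.

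The targeted genes were examined first. Ptpn11 (chromosome 5, 121130533 to 121191397, GRCm38) had 147, 143, 156 and 172 normalised reads in SKO tumours, against 394, 451, 390.4 and 369.8 in IKO tumours and 371, 361, 404 and 357 in WT tumours. Normalised reads are counts scaled to a common library size. The SKO tumours lay below all IKO and WT tumours, with a log2 difference between SKO and IKO of -1.24 ± 0.11 (SE; limma adjusted p = 8.56e-05). Ikbkb had 333, 326, 252 and 294 normalised reads in SKO tumours and 237, 309, 278 and 236 in IKO tumours, and the groups overlapped (log2 difference 0.17 ± 0.13, limma adjusted p = 0.571). WT tumours had 298, 394, 329 and 355, and IKO against WT tumours was not called for Ikbkb (-0.35 ± 0.13, limma adjusted p = 0.281). Chuk was lower in SKO tumours, at 90.2, 153, 104 and 97 against 173, 172, 250.3 and 192 in IKO tumours (log2 difference -0.71 ± 0.17, limma adjusted p = 0.046). That call was lost without any 1 of SKO replicates 1, 3 and 4 or IKO replicates 1, 3 and 4, and the adjusted p reached 0.123 over the alternatives. It was also lost with only the SKO and IKO tumours in the fit, under quantile normalisation and without limma's trend. Ikbkg did not pass the test (-0.06 ± 0.19, limma adjusted p = 0.909). No IKK gene was called lower in IKO than in SKO tumours. Reads from outside a deleted exon can still be counted, so these levels do not check the IKO label.

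Read totals over the listed genes were 4906429 to 5642179 in SKO tumours, 4676444 to 7175222 in IKO tumours and 5805949 to 8508815 in WT tumours. On the first principal component of the 12 tumours, which held 23.9% of the variance, SKO tumours scored 8.8 to 21.4, IKO tumours -33.8 to -9.2 and WT tumours -3 to 16.9. IKO replicate 2 was the IKO tumour nearest to the others. Principal component 2, with 16% of the variance, parted the WT tumours. WT replicates 2 and 3 scored 34.4 and 26.6 on it, and WT replicates 1 and 4 scored -8.1 and -4.6. Reads from the Y-linked genes Ddx3y, Uty, Kdm5d and Eif2s3y were present in all 12 tumours. All 8 hepatocyte markers (Alb, Apoa1, Ttr, Trf, Hnf4a, Serpina1c, Apob and Fgb) were detected in each tumour group, and their summed level was 1098572 to 1862876 normalised reads in SKO tumours, 1374300 to 1695957 in IKO tumours and 1630778 to 2084523 in WT tumours.

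Between SKO and IKO tumours 250 of 12966 genes were called at a limma adjusted p below 0.05 (1.93%), 82 higher in SKO tumours (0.632%) and 168 lower (1.3%). At an unadjusted p below 0.05 there were 2125 genes. On the deposited log2 scale, which compresses low counts, 27 called genes were higher by at least 1 and 1 by at least 2, while 99 were lower by at least 1 and 32 by at least 2. On the limma-voom scale of recovered reads the same 250 genes gave 60 and 23 higher, and 121 and 60 lower. All 4 SKO libraries lay apart from all 4 IKO libraries in 237 of the 250 genes, as the call itself favours, and in 9.53% of all genes tested. The count depended on single libraries. It was 193, 122, 130 and 177 without SKO replicate 1, 2, 3 and 4 in turn, and 96, 407, 125 and 94 without IKO replicate 1, 2, 3 and 4. Of the 250 genes, 69 kept their call in each of 16 alternatives, 20 of them higher and 49 lower in SKO tumours. Because tumours were measured in bulk, fewer cells of a type and less RNA per cell cannot be told apart.

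**Figure D1:**
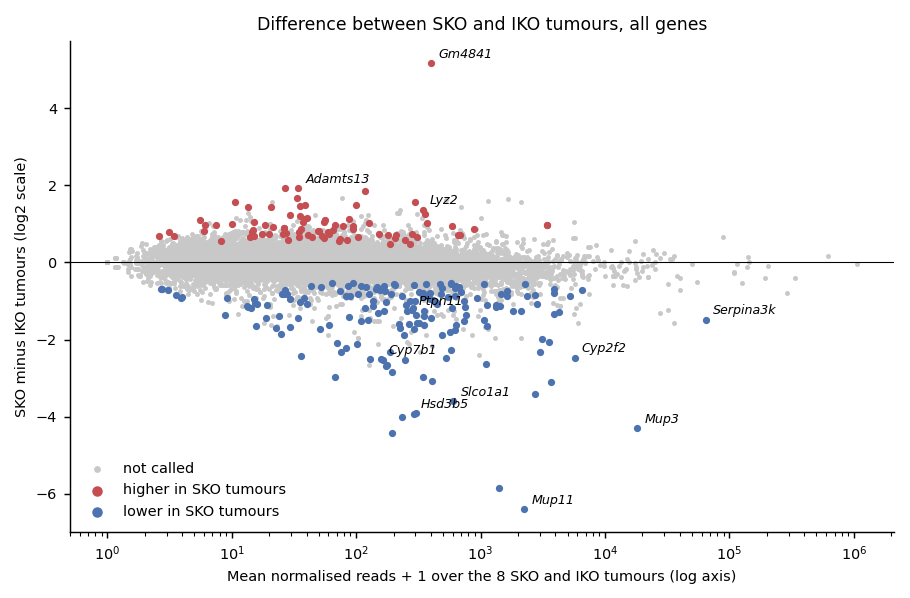
Difference between SKO and IKO tumours on the log2 scale (vertical axis) against mean normalised reads plus 1 over the 8 tumours (horizontal, log axis), 1 point per gene. Red points are the 82 genes called higher and blue points the 168 called lower in SKO tumours; the lower genes reach -6.40 (Mup11), and Gm4841 alone lies above 2.

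The largest falls in SKO against IKO tumours were mostly in genes of the major urinary proteins. These are lipocalins that the liver secretes and mice excrete in urine, where they carry pheromones, and their genes form a cluster of close copies on chromosome 4. Of 18 measured Mup genes, 15 were lower in SKO tumours and 0 were higher, where 1.3% of all genes were called lower. Their median log2 difference was -2.20, against 0.00 over all genes. The promoters of Mup11, Mup17 and Mup3, chosen by hand among the largest falls, are shown beside that of Slco1a1, a lower gene outside the family. Each is the stretch of 250 bases before the transcription start (RefSeq, GRCm38.p6), written 5′ to 3′ on the gene's strand. Capitals mark ATCAAT or its reverse ATTGAT, the core bound by HNF6, a liver factor that takes part in sex-dependent expression.
Mup11 (chr4:60662396-60662645, minus strand): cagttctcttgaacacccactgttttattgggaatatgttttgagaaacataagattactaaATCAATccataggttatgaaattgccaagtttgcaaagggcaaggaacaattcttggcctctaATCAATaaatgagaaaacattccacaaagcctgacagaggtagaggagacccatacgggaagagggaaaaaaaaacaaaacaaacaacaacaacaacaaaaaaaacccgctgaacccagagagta
Mup17 (chr4:61595833-61596082, minus strand): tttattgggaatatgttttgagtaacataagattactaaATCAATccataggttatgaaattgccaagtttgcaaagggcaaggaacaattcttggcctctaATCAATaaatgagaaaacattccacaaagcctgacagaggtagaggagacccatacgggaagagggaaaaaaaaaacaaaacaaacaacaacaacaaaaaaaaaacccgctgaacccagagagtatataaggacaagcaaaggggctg
Mup3 (chr4:62087318-62087567, minus strand): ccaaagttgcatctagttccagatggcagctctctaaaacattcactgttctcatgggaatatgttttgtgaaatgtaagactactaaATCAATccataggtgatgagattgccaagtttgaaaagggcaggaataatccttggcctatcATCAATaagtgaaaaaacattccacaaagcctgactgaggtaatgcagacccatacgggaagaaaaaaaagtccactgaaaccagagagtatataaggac
Slco1a1 (chr6:141946963-141947212, minus strand): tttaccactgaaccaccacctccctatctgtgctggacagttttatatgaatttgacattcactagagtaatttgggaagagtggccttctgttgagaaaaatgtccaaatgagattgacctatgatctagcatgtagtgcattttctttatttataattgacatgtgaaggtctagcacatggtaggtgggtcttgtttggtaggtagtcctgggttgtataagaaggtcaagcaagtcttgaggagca
The letters ATCAAT, on either strand, occurred in 6.72% of 32851 promoter windows of this length and at least 2 times in 0.609%. Promoter windows were on hand for 10 of the 15 lower Mup genes, and each of the 10 held 2 or more. Of the 12 lower genes among the male-biased genes described next, 8 had a window and 1 held the letters, Mup21, which stands in both lists. TTCNNNGAA, the letters of a STAT5 site, stood in 7.02% of all windows and in 0 of the 10 Mup windows. These are matches of letters within short windows of related genes, not sites shown to be bound.

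Mup11 (chromosome 4, 60658466 to 60662411) had 0, 33.1, 65.9 and 55.4 normalised reads in SKO tumours, against 7428, 3203, 4264 and 2976 in IKO tumours and 437, 19, 21.1 and 899 in WT tumours. The SKO and IKO tumours were far apart, and 2 of the WT tumours stood at the SKO level (log2 difference of SKO against IKO -6.40 ± 0.88, limma adjusted p = 0.00226). Mup17 showed the same order, with 2.69, 20.5, 31.6 and 35.4 in SKO tumours, 4307, 1590, 3919 and 1300 in IKO tumours and 201, 18, 1.24 and 393 in WT tumours (-5.85 ± 0.78, limma adjusted p = 0.00168). Mup3, the most abundant of those named, had 1871, 742, 2361 and 2025 normalised reads in SKO tumours, 51330, 17634, 30911 and 38612 in IKO tumours and 9584, 3404, 2987 and 14188 in WT tumours. Its mean was 19.8 times higher in IKO than in SKO tumours (log2 difference -4.30 ± 0.50, limma adjusted p = 0.000751). Mup7 was at 0, 0, 3.95 and 4.62 normalised reads in SKO tumours and at 514, 202, 369 and 465 in IKO tumours. Mup4, Mup9, Mup21 and Mup1 differed by -3.91, -4.01, -3.08 and -2.97 on the log2 scale, and Mup9 was not called by limma-voom (adjusted p = 0.0953). Mup20, which encodes the pheromone darcin, had 899.6, 885, 2618 and 1008 normalised reads in SKO tumours and 6041, 3956, 5645 and 4066 in IKO tumours (-1.98 ± 0.31, limma adjusted p = 0.00565). Since the copies are so alike, reads may be split among them. In the last 500 bases of the longest annotated transcript, a median of 85.8% of windows of 50 bases were shared with another Mup gene, from 0.887% for Mup6 to 100% for Mup1, Mup7 and Mup19. Mup3 (8.2%) and Mup20 (6.43%) shared few. The windows cover transcript ends only and leave out Mup pseudogenes, so they do not show which copy each read came from. Between 12 and 13 Mup genes were called with any 1 library left out, and 10 with limma-voom on recovered reads.

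**Figure D2:**
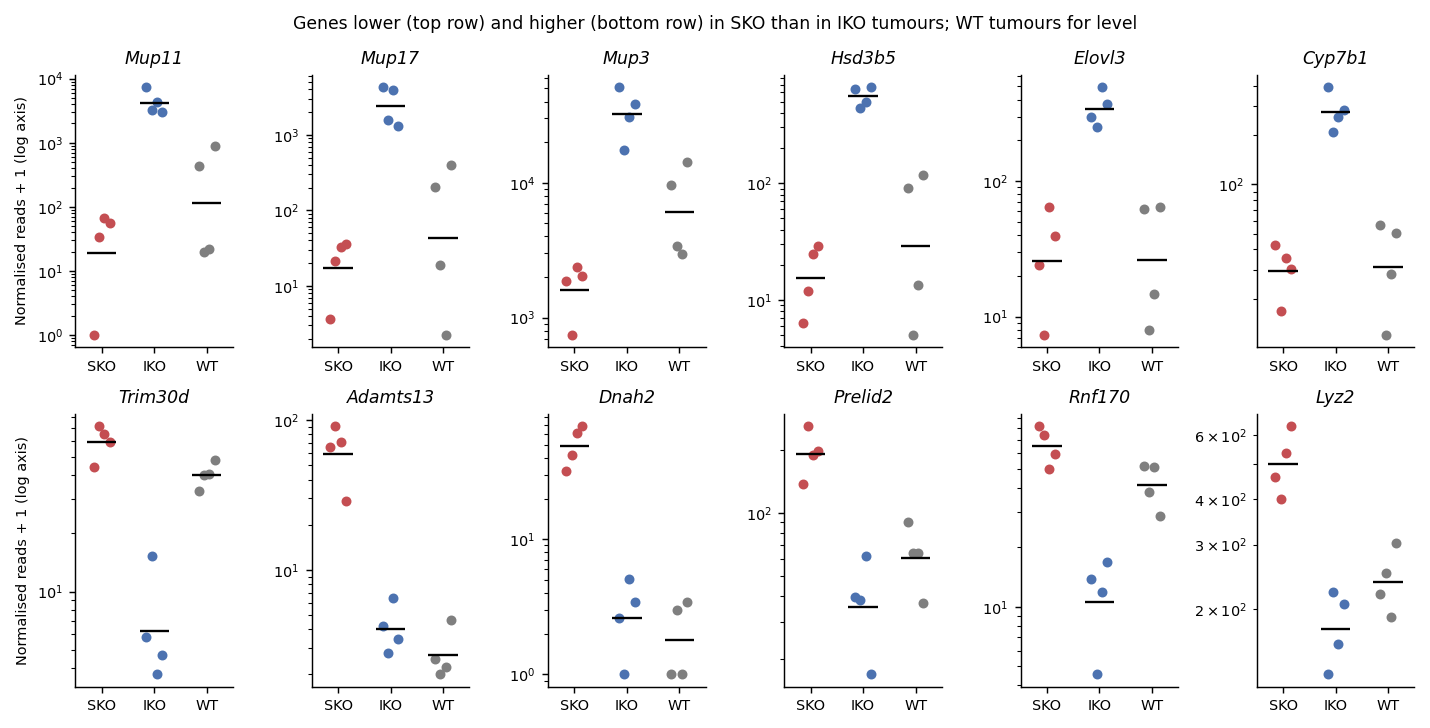
Normalised reads plus 1 (log axis) in each SKO, IKO and WT tumour library, 4 points a group, with the geometric mean as a bar. In the top row all IKO tumours lie above all SKO tumours and in the bottom row all SKO tumours lie above all IKO tumours; WT tumours lie near SKO for Elovl3 and Cyp7b1 and near IKO for Adamts13 and Dnah2.

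Outside the Mup family, other genes known to be expressed more in male than in female liver were also lower in SKO tumours. Of 23 measured genes of this growth hormone dependent list, which includes Mup20 and Mup21, 12 were lower and 0 higher, and the median difference was -1.63. Among all genes, 1.3% were called lower. Hsd3b5, a steroid dehydrogenase of male liver (chromosome 3, 98618634 to 98630252), had 5.39, 11, 23.7 and 27.7 normalised reads in SKO tumours, against 644, 442, 498 and 666 in IKO tumours (-3.92 ± 0.46, limma adjusted p = 0.000871). It was 33.2 times higher in IKO than in SKO tumours, and the groups did not overlap. Slco1a1, an organic anion transporter, had 39.1, 14.2, 179 and 102 in SKO tumours and 1640, 654, 815 and 1389 in IKO tumours (-3.60 ± 0.58, limma adjusted p = 0.00606). Elovl3, which elongates very long fatty acids, had 22.9, 6.3, 63.2 and 38.5 in SKO tumours and 298, 249, 495 and 369.8 in IKO tumours (-2.83 ± 0.40, limma adjusted p = 0.00294). Each of these genes kept its call in all 16 alternatives. C6, a complement component on the list, was lower by a smaller amount (-1.63 ± 0.33, limma adjusted p = 0.0232), and lost its call without IKO replicate 1, 3 or 4, where the adjusted p reached 0.0856. Without IKO replicate 1 the list had 8 calls.

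Of 21 measured genes with female-biased expression, 2 were higher in SKO tumours and 0 lower, with a median of 0.39. Among all genes 0.632% were called higher. Akr1b7, an aldo-keto reductase, had 67.3, 94.5, 52.7 and 24.6 normalised reads in SKO tumours and 4.8, 17.8, 5.44 and 6.1 in IKO tumours (1.47 ± 0.26, limma adjusted p = 0.00993). Fmo2, a flavin-containing monooxygenase, had 186, 265, 136 and 61.6 in SKO tumours and 52.9, 23.1, 28.6 and 45.1 in IKO tumours (1.50 ± 0.32, limma adjusted p = 0.031). The Fmo2 call was lost without any 1 of 7 libraries, all but SKO replicate 4, with an adjusted p of up to 0.0911. Fmo2 was not called by limma-voom either, or with only the SKO and IKO tumours in the fit. Among 15 genes of the growth hormone receptor and its STAT5 pathway (Ghr, Jak2, Stat5b, Socs2, Igf1 and others), 0 were called by limma or limma-voom and 3 had an unadjusted p below 0.05. Limma called 2 of them without IKO replicate 2.

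Genes of bile acid synthesis and transport were the next group by number, where 1.3% of all genes were called lower. Of 27, 6 were lower in SKO tumours and 0 higher, with a median of -0.46. Besides Slco1a1, they were enzymes of synthesis and conjugation. Cyp7b1, the oxysterol hydroxylase of the alternative route of bile acid synthesis (chromosome 3, 18071950 to 18243338), had 41.8, 15.8, 34.3 and 29.2 normalised reads in SKO tumours, 392, 208, 256 and 283 in IKO tumours and 55.2, 11, 27.3 and 49.5 in WT tumours. The IKO tumours stood above all SKO and WT tumours (SKO against IKO -2.51 ± 0.27, limma adjusted p = 0.000496). Hsd3b7, a steroid dehydrogenase of the pathway, had 943, 644, 1117 and 849.5 in SKO tumours and 1539, 1595, 2484 and 2245 in IKO tumours (-1.12 ± 0.20, limma adjusted p = 0.0101). Slc27a5, which activates bile acids and fatty acids, averaged 1110 ± 468 in SKO tumours and 2566 ± 464 in IKO tumours (SD, n = 4 each; -1.26 ± 0.24, limma adjusted p = 0.0181). Its call was lost without SKO replicate 3 or IKO replicate 1 or 4, with an adjusted p of up to 0.0721. Baat and Acox2, also called and named after their values were seen, differed by -0.83 and -0.80. With any 1 library left out the list had 3 to 11 calls, the most without IKO replicate 2. Sult2a8, a sulfotransferase, was no member of a list but among the largest falls, at 94.3, 28.4, 71.2 and 33.9 in SKO tumours and 906, 263, 619 and 755 in IKO tumours (-2.97 ± 0.43, limma adjusted p = 0.00297).

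A few genes that mark zones of the liver lobule were lower, beside 1.3% of all genes. Of 32 pericentral genes 4 were lower and 0 higher (median -0.71), and of 22 periportal genes 2 were lower and 0 higher (median -0.37). Cyp2f2, a cytochrome of periportal hepatocytes, had 2439, 1268, 2211 and 819 normalised reads in SKO tumours and 16060, 3954, 8141 and 10762 in IKO tumours (-2.47 ± 0.41, limma adjusted p = 0.00767). Sds, serine dehydratase, had 136, 92.9, 48.8 and 81.6 in SKO tumours and 533, 394, 245 and 411 in IKO tumours (-1.87 ± 0.24, limma adjusted p = 0.00148). Among the pericentral genes, Cyp2e1 had 2625, 606, 651 and 616 in SKO tumours and 4677, 2574, 5333 and 7098 in IKO tumours. SKO replicate 1 overlapped the IKO tumours (-2.33 ± 0.48, limma adjusted p = 0.0266). Cyp2c29, also a target of the receptor CAR, overlapped between the groups too, at 2069, 302, 239.8 and 114 in SKO tumours and 5700, 1799, 5097 and 6419 in IKO tumours (-3.42 ± 0.79, limma adjusted p = 0.0428). Rgn (regucalcin) and Lhpp (a histidine phosphatase) differed by -1.80 and -1.51. The pericentral calls were not stable to the choice of libraries: 0 to 10 genes were called with 1 library left out, 0 without SKO replicate 2 or IKO replicate 1, 3 or 4 and 10 without SKO replicate 1. The highest adjusted p over the alternatives was 0.105 for Cyp2e1, 0.0741 for Rgn and 0.138 for Cyp2c29, while Cyp2f2 and Sds kept their calls in all 16.

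Lists of energy and amino acid metabolism gave few calls, all lower in SKO tumours. Over all genes 1.3% were called lower. In lipid droplets and fatty acid uptake 3 of 24 genes were called, in fatty acid oxidation 2 of 28, in lipogenesis 1 of 24, in the urea cycle 1 of 10 and in sulfur amino acids 1 of 15. Thrsp, a regulator of fat synthesis, had 1515, 1285, 2017 and 448 normalised reads in SKO tumours and 10065, 1872, 6031 and 4929 in IKO tumours, which overlapped (-2.05 ± 0.47, limma adjusted p = 0.0414). Acsl1 and Cpt2, which activate and import fatty acids for oxidation, differed by -1.08 and -0.79. Mgll (monoacylglycerol lipase) and Fitm1 (lipid droplet formation) differed by -1.26 and -1.72, Gnmt (glycine N-methyltransferase) by -1.28 and Slc25a15 (the ornithine carrier) by -0.67. Thrsp, Acsl1, Cpt2, Mgll, Fitm1, Gnmt and Slc25a15 each lost the call without any 1 of IKO replicates 1, 3 and 4 and of some SKO replicates, with adjusted p of up to 0.13, 0.0989, 0.093, 0.113, 0.13, 0.154 and 0.159. Each of these calls was also lost with only the SKO and IKO tumours in the fit. Thrsp, Mgll, Gnmt and Slc25a15 lost theirs under quantile normalisation too, and Gnmt and Slc25a15 without limma's trend. Slc25a15 was not called under a replicate block or by limma-voom either. Hacl1, a peroxisomal lyase outside the lists, averaged 147 ± 68.2 in SKO tumours and 486 ± 166 in IKO tumours (SD, n = 4 each; -1.57 ± 0.29, limma adjusted p = 0.0132). It lost the call without IKO replicate 1 or 4, at an adjusted p of up to 0.0552. Car3, a carbonic anhydrase among the largest falls, had 1717, 265, 997 and 483 in SKO tumours and 6283, 3224, 8557 and 7968 in IKO tumours (-3.09 ± 0.58, limma adjusted p = 0.0155), and lost the call without IKO replicate 1, 3 or 4, at up to 0.06. All 23 genes of cholesterol synthesis had negative differences (median -0.41), but limma called 0 of them and limma-voom 0. At an unadjusted p below 0.05 there were 6, and without SKO replicate 4 limma called 2.

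Secreted liver proteins included 1 call among 29 acute phase genes and 2 among 34 of complement and coagulation, all lower in SKO tumours. The share called lower over all genes was 1.3%. Serpina3k, an abundant serpin, had 32092, 25304, 44555 and 34902 normalised reads in SKO tumours and 126767, 83089, 82986 and 89499 in IKO tumours (-1.49 ± 0.24, limma adjusted p = 0.00606). It lay in a run of called genes on chromosome 12 with Serpina3c and Serpina12, singled out for their position and both lower, at -1.62 and -1.33. Mbl1, a mannose-binding lectin, had 194, 191, 182 and 185 in SKO tumours and 471, 336, 385 and 419 in IKO tumours (-0.99 ± 0.18, limma adjusted p = 0.0136). Its call was lost without IKO replicate 1 or 4, at up to 0.0581. Wfdc21, a small secreted protein, had 407, 59.9, 105 and 90.8 in SKO tumours and 1337, 604, 782 and 789.6 in IKO tumours (-2.49 ± 0.50, limma adjusted p = 0.0241). It lost the call without any 1 of SKO replicates 2, 3 and 4 and IKO replicates 1, 3 and 4, at up to 0.0879. Serpina3k kept its call in all 16 alternatives.

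**Figure D3:**
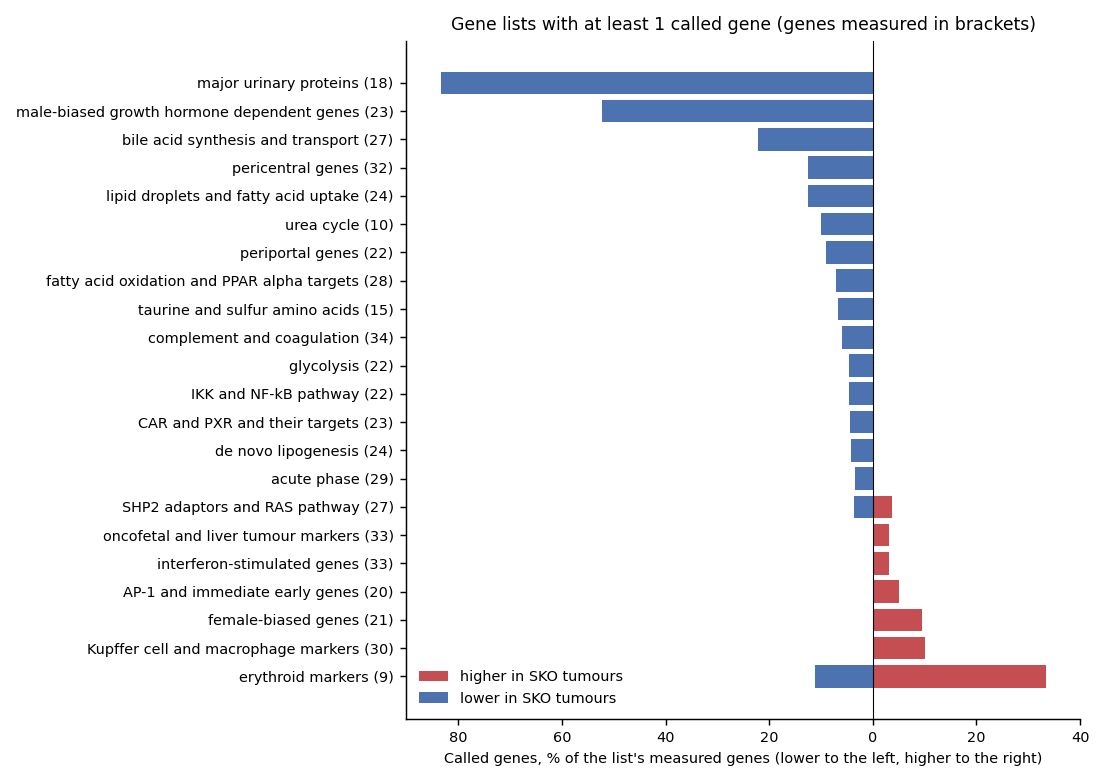
Share of each list's measured genes called lower (blue, to the left) and higher (red, to the right) in SKO than in IKO tumours, for the 22 of 47 lists with at least 1 called gene. The Mup genes (15 of 18) and the male-biased genes (12 of 23) reach furthest to the left.

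The pathways of the deleted genes held few calls, where the share called over all genes was 1.93%. Of 27 genes of the SHP2 and RAS pathway, Ptpn11 was lower and Pebp1 higher. Pebp1, which encodes a phosphatidylethanolamine-binding protein, had 870.0, 616, 992 and 668 normalised reads in SKO tumours, 378, 314, 462 and 414 in IKO tumours and 299, 253, 247 and 279.8 in WT tumours (0.94 ± 0.16 for SKO against IKO, limma adjusted p = 0.00859). Pebp1 lies 3.85 Mb from Ptpn11. Of 20 immediate early genes 1 was higher, Klf6, a zinc-finger factor with 162, 118, 129 and 108 in SKO tumours and 49.6, 88.8, 55.8 and 34.2 in IKO tumours (0.94 ± 0.18, limma adjusted p = 0.0174). The Klf6 call was lost without IKO replicate 1 or 4 and with only the SKO and IKO tumours in the fit, at up to 0.0625. Chuk was the single call among 22 genes of the IKK and NF-kB pathway. Among 18 feedback and target genes of ERK and 21 target genes of NF-kB limma and limma-voom called 0, with medians of 0.15 and 0.34, and 1 and 7 genes had an unadjusted p below 0.05.

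Genes higher in SKO tumours were fewer, and some of them were neighbours. Called genes whose starts lay within 250 kb of each other formed 7 runs of at least 3 genes, 32 genes in all. The Mup genes made up 3 runs, which held lower genes only, as did the Serpina run on chromosome 12. Only the run on chromosome 2 held higher genes alone. Runs on chromosome 7 (4 higher, 1 lower) and chromosome 8 (2 higher, 1 lower) were mixed. On chromosome 2, between 26953563 and 27108981, all 5 measured genes whose starts fell in the stretch were higher in SKO tumours: Rexo4, Adamts13, Cacfd1, Slc2a6 and Adamtsl2. Rexo4, Slc2a6 and Adamtsl2 were singled out for this position after their values were seen. Adamts13, the protease that cleaves von Willebrand factor, had 64.6, 89.8, 69.8 and 27.7 normalised reads in SKO tumours, 3.2, 1.78, 5.44 and 2.44 in IKO tumours and 1.53, 1, 1.24 and 3.62 in WT tumours. IKO and WT tumours were near the floor of detection, and SKO tumours stood well above both (SKO against IKO 1.92 ± 0.21, limma adjusted p = 0.0005; mean ratio 19.6). Cacfd1, next to it, had 423, 691, 488 and 477 in SKO tumours, 176, 227, 170.0 and 222 in IKO tumours and 219, 163, 226 and 171 in WT tumours (1.26 ± 0.16, limma adjusted p = 0.0014). Rexo4, Slc2a6 and Adamtsl2 were higher by 1.01, 0.98 and 1.12.

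A run on chromosome 7, between 104218793 and 104507849, held Trim genes, which encode tripartite motif proteins, several of them induced by interferon. Trim30d, the 1 call among 33 interferon-stimulated genes, had 43.1, 70.9, 64.6 and 58.5 normalised reads in SKO tumours, 4.8, 14.2, 2.72 and 3.66 in IKO tumours and 32.2, 39, 39.7 and 47 in WT tumours. Here the SKO tumours were near WT and the IKO tumours low (SKO against IKO 1.68 ± 0.18, limma adjusted p = 0.000454). Trim30a had 44.4, 72.5, 60.6 and 47.7 in SKO tumours and 14.4, 12.4, 13.6 and 9.76 in IKO tumours (1.21 ± 0.17, limma adjusted p = 0.00294). Trim12a, singled out after its values were seen, had 14.8, 23.6, 25 and 13.8 in SKO tumours, 0 reads in all 4 IKO tumours and 19.9, 18, 12.4 and 22.9 in WT tumours (1.58 ± 0.15, limma adjusted p = 0.000149). Against a floor of 3 reads per IKO library, its mean was at least 4.33-fold higher in SKO tumours. Trim34a in the same run was higher in SKO tumours (1.04) and Trim6 lower (-0.91), both also singled out afterwards. The remaining 32 interferon-stimulated genes were not called, the list's median was 0.28, and 0.632% of all genes were called higher.

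Gm4841, a predicted gene on chromosome 18 (60268305 to 60273272), was the largest rise. It had 242, 689.9, 1202 and 1051 normalised reads in SKO tumours, 3.2, 0, 2.72 and 2.44 in IKO tumours and 1.53, 0, 0 and 0 in WT tumours (5.17 ± 0.37 for SKO against IKO, limma adjusted p = 1.51e-05). Its neighbour F830016B08Rik, which starts at 60293380 and was singled out for its position, went the other way, with 10.8, 4.72, 25 and 4.62 in SKO tumours and 208, 94.2, 91.1 and 157 in IKO tumours (-2.31 ± 0.28, limma adjusted p = 0.000907). In the last 500 bases of its longest transcript, neither gene shared a window of 50 bases with the other. Dnah2, an axonemal dynein heavy chain, had 31, 41, 60.6 and 67.7 in SKO tumours, 1.6, 0, 4.08 and 2.44 in IKO tumours and 0, 2, 0 and 2.41 in WT tumours (1.92 ± 0.22, limma adjusted p = 0.000751). Prelid2 had 136, 258, 188 and 196 in SKO tumours and 38.4, 37.3, 61.2 and 15.9 in IKO tumours (1.84 ± 0.25, limma adjusted p = 0.00176). Arsk (a sulfatase), Tmem170 and Sntb2 (a syntrophin) were higher by 1.14, 1.23 and 1.12. All 3 kept their calls in the 16 alternatives, as did Gm4841, Prelid2, Adamts13, Cacfd1, Trim30d and Trim30a. Dnah2 kept its call in the 15 alternatives that tested it. The deposited scale compresses low counts, and on recovered reads limma-voom gave larger log2 differences: 8.06 for Gm4841, 4.30 for Dnah2, 3.96 for Adamts13, 3.38 for Trim30d and 2.34 for Tmem170.

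Calls among markers of other cell types were few. Over all genes 0.632% were called higher in SKO tumours and 1.3% lower. Of 30 Kupffer cell and macrophage markers 3 were higher in SKO tumours and 0 lower, with a median of 0.38. Lyz2, the lysozyme of myeloid cells, had 458, 398, 535 and 632 normalised reads in SKO tumours, 131, 222, 159 and 205 in IKO tumours and 219, 249, 188 and 302 in WT tumours. SKO tumours lay above both other groups (1.37 ± 0.18 for SKO against IKO, limma adjusted p = 0.00168), and the call was kept in all 16 alternatives. Csf1r, the receptor of the macrophage growth factor CSF1, had 846, 742, 821 and 883 in SKO tumours and 386, 544, 483 and 591 in IKO tumours (0.70 ± 0.16, limma adjusted p = 0.0468). Cx3cr1, the fractalkine receptor, had 48.5, 52, 56.7 and 63.1 in SKO tumours and 9.61, 16, 38.1 and 7.32 in IKO tumours (1.06 ± 0.25, limma adjusted p = 0.0445). Csf1r lost its call without any 1 library other than IKO replicate 2, and Cx3cr1 without any 1 other than IKO replicate 3, at up to 0.146 and 0.152. Csf1r also lost it with all 60 libraries of the sequencing group in the fit, without limma's trend, under a replicate block and by limma-voom. Cx3cr1 also lost it under a replicate block and with only the SKO and IKO tumours in the fit. The summed level of the 30 markers overlapped between the groups, at 7004 to 8961 normalised reads in SKO tumours and 4783 to 8274 in IKO tumours, and 0 of the 30 were at 0 in either.

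Erythroid genes gave calls in both directions. The beta globins Hbb-bs and Hbb-bt were higher in SKO tumours, while Alas2, the heme synthesis enzyme of red cell precursors, was lower. Hbb-bs had 6235, 5278, 3082 and 3684 normalised reads in SKO tumours and 1784, 2945, 2012 and 2364 in IKO tumours (0.97 ± 0.23, limma adjusted p = 0.0475). Hbb-b1 holds the same values as Hbb-bs in every library, so the 3 higher calls of 9 measured markers are at most 2 distinct measurements. By the window count used for the Mup genes, Hbb-bs shared 64.7% of its windows with Hbb-bt, and Hbb-bt 64.5% with Hbb-bs. Reads may thus be split between them. Alas2 had 404, 334, 344 and 300.1 in SKO tumours, 1132, 524, 838 and 877 in IKO tumours and 357, 152, 182 and 229 in WT tumours (-1.18 ± 0.24 for SKO against IKO, limma adjusted p = 0.0246). The calls depended on single libraries. The list had 0 calls without SKO replicate 2 or IKO replicate 1, 3 or 4, and the highest adjusted p over the alternatives was 0.154 for Hbb-bs, 0.115 for Hbb-bt and 0.116 for Alas2. All of Hbb-bs, Hbb-bt and Alas2 also lost their calls with all 60 libraries of the sequencing group in the fit. Hbb-bs lost its call without limma's trend and under a replicate block too. The summed level of the 9 markers was 9692 to 17491 normalised reads in SKO tumours, above the 6581 to 9289 in IKO tumours. That sum holds both Hbb-bs and Hbb-b1, so the same reads enter it 2 times. The part of blood in the results was not tested.

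Stellate cell and matrix genes had a median of 0.57 and 34 of 37 positive differences, yet limma and limma-voom called 0 of them, with 15 at an unadjusted p below 0.05. Limma called 1 without IKO replicate 3 and 8 with all 60 libraries of the sequencing group in the fit. Their summed level was 15582 to 26111 normalised reads in SKO tumours and 11705 to 17227 in IKO tumours. All 10 genes of antigen presentation by class II had positive differences (median 0.66), and limma and limma-voom called 0, with 4 at an unadjusted p below 0.05. T and NK cell markers (13 measured) and sinusoidal endothelium markers (24) had 0 genes called and 0 at an unadjusted p below 0.05. Their summed levels were 160.3 to 539 and 4328 to 5574 normalised reads in SKO tumours, against 149 to 203 and 4780 to 5579 in IKO tumours. B cell (18), neutrophil (9) and cholangiocyte (18) markers likewise had 0 calls by limma or limma-voom, with 4, 2 and 5 at an unadjusted p below 0.05. Their summed levels were 1661 to 19541, 4963 to 11396 and 8497 to 9521 normalised reads in SKO tumours, and 1312 to 10532, 1258 to 7821 and 6395 to 11404 in IKO tumours. All neutrophil markers but 1 averaged at most 12.2 normalised reads over the SKO and IKO tumours (the mean of S100a9). The neutrophil sum thus rests almost wholly on 1 gene and does not measure the level of neutrophils. The part of other cell types in the differences of hepatocyte genes was not tested.

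Proliferation and stress gave little. Limma and limma-voom called 0 of 39 cell cycle genes, 25 target genes of p53, 24 genes of endoplasmic reticulum stress, 32 target genes of NRF2, 28 of ATF4 and 16 heat shock chaperones. At an unadjusted p below 0.05 there were 4, 1, 2, 6, 5 and 4. Among 33 oncofetal and tumour markers 1 was higher, Akr1b10, an aldo-keto reductase, with 52.5, 66.2, 38.2 and 38.5 normalised reads in SKO tumours and 24, 23.1, 17.7 and 12.2 in IKO tumours (0.79 ± 0.16, limma adjusted p = 0.0223). It lost the call without SKO replicate 1 or 2 or IKO replicate 3 or 4, at up to 0.08. With only the SKO and IKO tumours in the fit Akr1b10 was not called either. Among all genes, 0.632% were called higher. The other lists without a call by limma were class I antigen presentation, chemokines, gluconeogenesis, apolipoproteins, metal and iron genes, clock genes, hepatocyte transcription factors and the mitochondrial genome. They held 2, 3, 5, 5, 3, 3, 3 and 2 genes at an unadjusted p below 0.05, and limma-voom called 0 except for 1 mitochondrial gene.

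In non-tumour liver at 8 months the same contrast shows which of these differences were also present outside the tumours. There, 450 genes were called between SKO and IKO livers (3.47%), 217 higher in SKO (1.67%) and 233 lower (1.8%). That count was 190 without SKO non-tumour replicate 1 or 2, 225 without IKO replicate 1, 276 without IKO replicate 3 and 711 without SKO replicate 4. Of the 250 genes called in tumours, 80 were also called in non-tumour liver. That is 32% of the tumour calls and 17.8% of the non-tumour calls, and all 80 had the same sign. The sign was the same in 79 of the 82 genes higher in SKO tumours and in 147 of the 168 lower ones, called or not. The median difference of the higher genes was 0.86 in tumours and 0.60 in non-tumour liver, and that of the lower genes -1.12 and -0.55. Since the genes were picked for their size in tumours, a smaller median elsewhere is no result. Limma's test of the difference between the tumour and the non-tumour contrast called 1 gene (0.00771%), Snhg11, and limma-voom called 0. At an unadjusted p below 0.05 there were 1011 genes, 98 of them among the 250. With 1 library left out, 0 to 29 genes were called, the most without SKO tumour replicate 1. These fits took tumour and non-tumour libraries as independent, and the labels do not say whether those of the same number share a mouse.

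Mup11 differed by -5.72 ± 0.71 in non-tumour liver (limma adjusted p = 0.000485), close to its difference in tumours. Adamts13 (2.18), Trim30d (1.75), Trim12a (1.61), Lyz2 (1.53) and Ptpn11 (-1.42) were likewise called in both, with limma adjusted p of 6.2e-06, 2.86e-05, 8.12e-05, 0.0125 and 7.89e-06 in non-tumour liver. Of the 23 male-biased genes, 5 were called lower there and 0 higher, beside 1.8% of all genes called lower. Hsd3b5 (-2.99), Slco1a1 (-2.67) and Elovl3 (-1.21) were not called there (limma adjusted p = 0.0602, 0.0595 and 0.345). Single SKO non-tumour livers were far apart: Hsd3b5 had 12.9, 37.4, 904 and 891 normalised reads in them, and Slco1a1 115, 163, 2838 and 1977. Sds was -1.87 in tumours and -0.07 in non-tumour liver (limma adjusted p = 0.908). Wfdc21 was -2.49 in tumours and 0.12 in non-tumour liver (limma adjusted p = 0.772). Neither difference between the contrasts passed the adjustment. Snhg11, a noncoding host gene of small nucleolar RNAs, had 60.6, 11, 17.1 and 10.8 normalised reads in SKO tumours and 78.5, 24.9, 42.2 and 29.3 in IKO tumours, which overlapped (-0.57 ± 0.30, limma adjusted p = 0.371). In non-tumour liver it averaged 507 ± 125 in SKO and 155 ± 10.8 in IKO (SD, n = 4 each; 1.52 ± 0.14, limma adjusted p = 3.03e-05). The 2 contrasts differed by -2.09 ± 0.35 (limma adjusted p = 0.0391). With the tumour and non-tumour library of the same genotype and number taken as a pair, an alternative added after seeing the data, the adjusted p was 0.0721 by limma and 0 genes were called, with 1120 at an unadjusted p below 0.05.

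**Figure D4:**
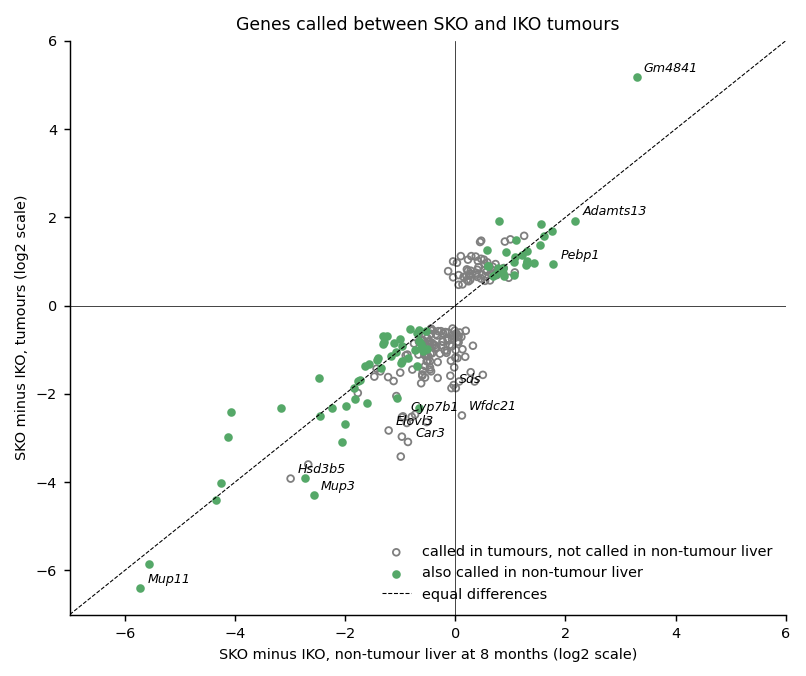
Difference between SKO and IKO tumours (vertical) against that between SKO and IKO non-tumour liver at 8 months (horizontal), both on the log2 scale, for the 250 genes called in tumours. Filled points are the 80 also called in non-tumour liver; 226 of the 250 points lie where both differences have the same sign, and the dashed line marks equal differences.

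WT tumours were set beside both knockouts. The WT tumours were not alike among themselves: Hsd3b5, for example, had 90.5, 4, 12.4 and 117 normalised reads in them. Differences from WT thus rest on a mean over unlike tumours. SKO against WT tumours called 58 genes (0.447%) and IKO against WT tumours 51 (0.393%). With 1 library left out these counts were 22 to 64 (the fewest without SKO replicate 2) and 13 to 160 (the fewest without WT replicate 2, the most without IKO replicate 2). Of the 15 lower Mup genes, limma called 7 in IKO against WT tumours and 0 in SKO against WT tumours, with medians of 2.31 and -0.73. For Mup11 the difference of SKO against WT was -1.77 ± 0.88, at a limma adjusted p of 0.484. Hsd3b5 was 3.25 in IKO against WT tumours and -0.68 in SKO against WT tumours, with limma adjusted p of 0.00953 and 0.64. Cyp7b1 was 2.42 and -0.08 in the same pair, at 0.00224 and 0.942. Elovl3 was 2.79 and -0.04, at 0.00953 and 0.986. The higher genes divided. Adamts13 was 2.09 in SKO against WT tumours and 0.17 in IKO against WT tumours, with limma adjusted p of 0.000367 and 0.79. Trim12a was 0.03 and -1.55, at 0.962 and 0.00078. Of the 82 genes higher in SKO than in IKO tumours, 22 were called in SKO against WT, 9 in IKO against WT and 51 in neither. Of the 168 lower genes, 11 were called in SKO against WT, 18 in IKO against WT and 139 in neither. The contrasts share libraries.

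Levels over age set the tumours beside earlier liver, as a description with no test. Mup3 averaged 13638 ± 6752 normalised reads in SKO livers at 1 month, against 127104 ± 3892 in IKO and 118132 ± 20749 in WT livers (SD, n = 4 each). In non-tumour liver at 8 months it averaged 24778 ± 23515 in SKO, 100313 ± 14330 in IKO and 111441 ± 11355 in WT. In tumours the means were 1750 ± 702 in SKO, 34622 ± 14112 in IKO and 7541 ± 5361 in WT. The SKO mean was the lowest at every age, but single livers overlapped. At 3 months SKO livers reached 88684, above the lowest WT liver (75062), and at 5 months the lowest IKO liver (15972) lay below all SKO livers (16169 to 31838). Elovl3 averaged 731 ± 716 in SKO, 1145 ± 601 in IKO and 928 ± 446 in WT non-tumour liver, which overlapped. In tumours it averaged 32.7 ± 24.2 in SKO, 353 ± 107 in IKO and 36.5 ± 30.4 in WT. Adamts13 averaged 35 ± 7.5 in SKO livers at 1 month, against 3.28 ± 1.57 in IKO and 3.06 ± 2.6 in WT. Gm4841 averaged 58.5 ± 8.62 in SKO livers at 1 month, 155 ± 51.8 in SKO non-tumour liver at 8 months and 796 ± 427 in SKO tumours, and at most 3.51 ± 3.02 in any IKO or WT group. Trim30d averaged 30.6 ± 7.74 in SKO and 32.1 ± 8.63 in IKO livers at 1 month, and 85.4 ± 8.1 in SKO and 11 ± 2.86 in IKO non-tumour liver at 8 months.

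**Figure D5:**
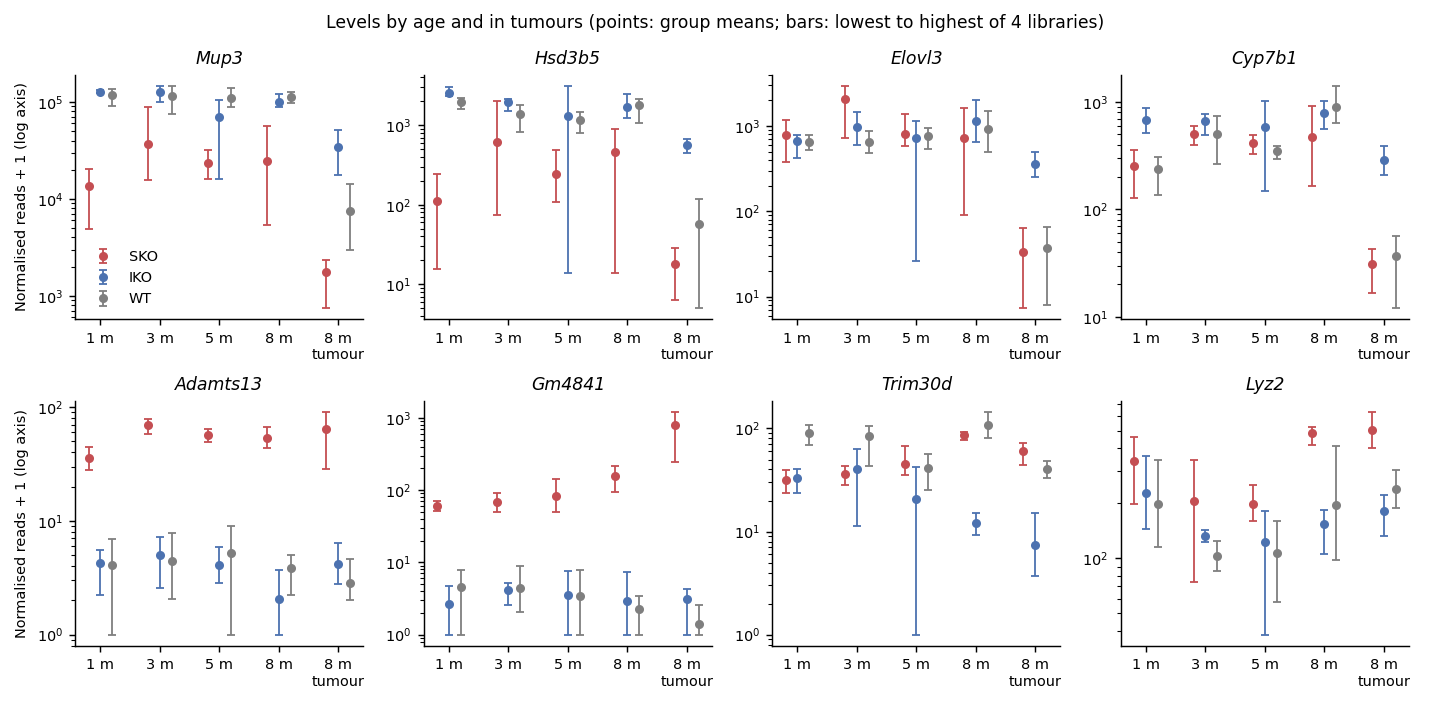
Normalised reads plus 1 (log axis) by age (1, 3 and 5 months, non-tumour liver at 8 months) and in tumours at 8 months, for SKO, IKO and WT; points are means and bars run from the lowest to the highest of 4 libraries. Mup3 and Hsd3b5 have their lowest mean in SKO at each age, Elovl3 and Cyp7b1 are low in SKO and WT tumours, and Adamts13 and Gm4841 are high in SKO at each age.

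Genes near Ptpn11 and the IKK genes were counted by distance. Within 10 Mb of Ptpn11, 12 of 192 other measured genes were called (6.25%), 6 higher and 6 lower in SKO tumours. They included Sds and Pebp1 above, and Erp29, an endoplasmic reticulum protein 0.30 Mb away, which was higher by 0.72. Within 10 Mb of Ikbkb, 4 of 85 were called (4.71%). Rnf170, a ubiquitin ligase gene 3.46 Mb away, had 80.8, 72.5, 48.8 and 58.5 normalised reads in SKO tumours, 12.8, 3.55, 10.9 and 15.9 in IKO tumours and 50.6, 37, 49.6 and 27.7 in WT tumours (1.49 ± 0.19 for SKO against IKO, limma adjusted p = 0.00127). Ido2, which takes part in tryptophan breakdown, was lower in SKO tumours (-1.30), as was Slc25a15. Near Chuk 3 of 151 genes were called (1.99%) and near Ikbkg 2 of 60 (3.33%). The share called over all genes was 1.93%, and the part of position in these calls was not tested. Erp29 and Ido2 were singled out for their position.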

How the data were processed

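RNA was measured in 105 mouse liver libraries, of which the 12 tumours and the 12 non-tumour livers of sequencing group 1 at 8 months entered the tests. Reads were aligned with STAR 2.7.10a, counted with HTSeq 2.0.2 and normalised with DESeq2 1.32.0, on GRCm38, per the submitters' processing notes. The deposited values are log2 expression with a floor of 3.8289. Inverting that scale gave whole reads within 0.05 for 99.98% of values, hence the normalised reads printed here. Depth was 4676444 to 8508815 reads per tumour library, and counting error is only part of the spread. No 2 of 276 library pairs agreed within sampling noise (lowest chi-square per gene 10.596).

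Limma 3.58.1 (R 4.3.3, moderated with a trend) was fitted to the log2 values of all 12966 genes, with 1 mean per group, and p-values were adjusted by Benjamini-Hochberg. A gene with an adjusted p below 0.05 was called. Differences are on the deposited log2 scale, which understates the change of low genes. Named genes were the targeted genes, the 12 largest rises and falls without overlap and with a mean of at least 20 normalised reads, up to 4 called genes from each of 47 lists, and the leading genes of the tumour against non-tumour difference. Others are marked where they appear, and some genes are not reported here. The comparison and the lists were chosen with earlier results of these data known. Symbols were placed with GENCODE M21, 4 symbols occur more than once, and 121 genes share all values with another. The scripts were tested on simulated data.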

Additional observations from a re-analysis of the deposited data

Results flagged for a closer look

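Single tumours stood apart from the other 3 of their group in 10 of 128 gene and group pairs, where chance flags about 1 in 20 groups. In SKO tumours, replicate 3 was high for Mup21 (226.6 normalised reads, against 31.5 to 41.55 in the other 3) and for Mup20 (2618, against 885.2 to 1008). SKO replicate 1 was high for Cyp2e1 (2625, against 606.4 to 650.9) and Hacl1 (249.1, against 105.5 to 117.3), and low for Mup1 (0, against 1.318 to 1.575, which is 0 reads against 1 read in each of the other 3). In IKO tumours, replicate 2 was low for Rgn (586.2, against 959 to 994.6), Acsl1 (2224, against 4336 to 4763) and Gm4841 (0, against 2.441 to 3.203, which is 0 reads against 2), and high for Akr1b7 (17.76, against 4.805 to 6.102). The Mup1 and Gm4841 values lie under the floor of 3 reads, where such a gap shows no difference. IKO replicate 3 was low for Tmem170 (4.081, against 10.66 to 11.21).

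Snhg11 differed between tumours and non-tumour liver in its contrast of SKO with IKO, by -2.09 ± 0.35 on the log2 scale (limma adjusted p = 0.0391, and 0.0721 with same-numbered libraries of a genotype paired).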

How the results depend on the processing

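The 250 calls between SKO and IKO tumours became 729 with all 60 libraries of the sequencing group in the fit and 421 with library weights, and 94 to 407 with 1 library left out. Limma-voom on recovered reads called 189, 186 of them among the 250. Quantile normalisation called 247, 105 higher and 142 lower, against 82 and 168. The single call for the tumour against non-tumour difference became 22 with all 60 libraries, 0 with only the groups compared, 0 without the trend, 0 by limma-voom, 0 under a replicate block within genotype (chosen after seeing the data) and 0 to 29 with 1 library left out. The 450 non-tumour calls became 693 with library weights and 190 to 711 with 1 library left out. Same-numbered SKO and IKO tumours correlated at 0.15, 0.03, 0.27 and 0.01 in their deviations from the group means, so the numbers were not taken to pair them. Same-numbered tumour and non-tumour libraries correlated at 0.01, 0.13, 0.14 and 0.15 in SKO and 0.28, -0.05, 0.26 and 0.12 in IKO. For SKO replicates 2, 3 and 4 and IKO replicates 1, 3 and 4, the same-numbered non-tumour library correlated best with the tumour. Whether same-numbered libraries share a mouse is not stated, and the main fit did not pair them. A fit with the replicate number as a block called 237 genes in tumours (60 higher, 177 lower), 1 for the difference, 378 in non-tumour liver, 39 for SKO against WT and 108 for IKO against WT. Among values of single genes under the alternatives, 319 lost the threshold, 81 gained it, and 173 of 5370 had another sign than in the reported fit, 0 of them called in either. Low counts limit the precision of genes near the floor, such as Mup7 and Trim12a.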

Other observations

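A few called genes outside the lists were picked by hand after their values were seen, so they stand as single genes and not as groups. Laptm5, a lysosomal protein of blood cells, was higher in SKO than in IKO tumours by 0.86 ± 0.14 (limma adjusted p = 0.00767) and kept its call in all 16 alternatives. Ptprc, the pan-leukocyte marker CD45, differed by 0.94 ± 0.22 (limma adjusted p = 0.047), and lost its call without any 1 of the 8 libraries, at up to 0.146. Limma-voom did not call Ptprc either, nor did fits without the trend or with a replicate block. Of the T and NK cell, B cell and neutrophil lists, 0 genes were called.

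Ces3a and Ces3b, carboxylesterases, differed by -2.64 ± 0.43 and -2.52 ± 0.37 (limma adjusted p = 0.0066 and 0.00341). Dio1, the deiodinase that activates thyroid hormone, differed by -2.27 ± 0.28 in tumours (limma adjusted p = 0.000907) and by -1.98 in non-tumour liver (limma adjusted p = 0.000228). Slc22a7, an organic anion transporter, differed by -2.11. These 4 genes kept their calls in all 16 alternatives. Of 23 genes of the CAR and PXR list, which covers drug metabolism, 1 was called lower and 0 higher, with a median of -0.10. Among all genes, 1.3% were called lower.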
